A study of Mus musculus with 15 samples.

Results

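Heme breakdown and ferritin are covered here by 6 genes, chosen by name: Hmox1, Hmox2, Blvra, Blvrb, Fth1 and Ftl1. They stand among 43583 genes with a value in any library and 11584 genes that passed the filter on low values, and all 6 passed it. The RNA came from the large intestine of male C57Bl/6 mice aged 4 weeks, in 15 libraries of 5 groups with 3 libraries each. Cymopol, a compound of a marine green alga, was given at 0.3 mmol/kg (low dose) or 1.4 mmol/kg (high dose). The other agent was a non-polar extract of algae, at 0.3 g/kg (low dose) or 1.0 g/kg (high dose). The vehicle group got the solvent that every other group also received, Cremophor EL with 10% DMSO. All animals were gavaged on 3 consecutive days and the tissue was taken 12 h after the last gavage. That the 3 libraries of a group are from 3 mice is not stated, so the p-values measure the spread between these libraries.

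Heme oxygenases open the heme ring and release iron, carbon monoxide and biliverdin, and biliverdin reductases turn biliverdin into bilirubin. The freed iron is stored in ferritin, a hollow shell built from heavy and light chains. In mouse and human cells Hmox1, Blvrb, Fth1 and Ftl1 are known targets of the transcription factor NRF2, and BACH1 represses Hmox1 until heme removes it. Ferritin output is also set at translation, because iron regulatory proteins bind a hairpin in the 5′ UTR of both ferritin transcripts when iron is scarce.

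That hairpin is shown first, because it is the regulatory sequence the ferritin genes share, and it acts on translation, which RNA levels do not show. Each line gives 30 bases of the 5′ UTR in GENCODE M21 (GRCm38), 5′ to 3′ on the gene's strand, with the loop CAGTGN in capitals. The hairpin of Slc40a1, which encodes the iron exporter ferroportin, is given for comparison.
Fth1: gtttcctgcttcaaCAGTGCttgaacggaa
Ftl1: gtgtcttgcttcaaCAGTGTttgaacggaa
Slc40a1: tccaacttcagctaCAGTGTtagctaagtt
The Fth1 element lies in exon 1 at chr19:9982730-9982759 on the plus strand. The Ftl1 element lies in exon 1 at chr7:45459780-45459809 on the minus strand, and that of Slc40a1 in exon 1 at chr1:45925466-45925495 on the minus strand. In each of them the 5 bases on either side of the loop pair with each other. Fth1 and Ftl1 have the same base at 27 of the 30 positions. The 3 substitutions, written from Fth1 to Ftl1 and counted from 1 at the 5′ end as shown, are T3G, C6T and C20T. The loop alone, on the gene's strand, occurs in 25.1% of 50094 annotated 5′ UTRs of protein-coding transcripts. The loop with 5 paired bases on each side occurs in 37 of them, or 0.0739%, from 25 genes.

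The core of the antioxidant response element, TGACNNNGC, was searched on both strands of 300-base promoter windows from RefSeq (GRCm38.p6). Windows were given for 5 members, 9 windows in all: Hmox2, Blvra, Blvrb, Fth1 and Ftl1. The single match is in the window of Blvra, on the minus strand, and is shown in capitals within 31 bases of the plus strand at chr2:127070597-127070627.
Blvra: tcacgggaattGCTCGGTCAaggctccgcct
Of all 32851 windows, 12.4% hold such a match. A match of letters is no evidence of binding, and a window without one says nothing about sites elsewhere.

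By position in GRCm38, Hmox1 lies on chromosome 8 from 75093621 to 75100589, plus strand. Hmox2 spans 4726361 to 4766742 on chromosome 16, plus strand, where Cdip1 overlaps it on the opposite strand. Blvra covers 127070665 to 127097084 on chromosome 2, plus strand. Blvrb (27447978 to 27466144, plus strand) and Ftl1 (45457944 to 45459884, minus strand) are both on chromosome 7. Fth1 occupies 9980598 to 9985098 on chromosome 19, plus strand. All are protein-coding genes.

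The libraries differed in quality along the same lines as the groups, and every comparison with vehicle carries this. Estimated fragments in protein-coding genes numbered 289004 to 343638 in the cymopol high-dose libraries, 175518 to 559027 in the extract high-dose libraries and 25265 to 227401 in the vehicle libraries. The share of fragments assigned to genes was 57.1% to 65.6% over the 6 high-dose libraries, against 8.56% to 46.6% in the 3 vehicle libraries. Assigned means in a gene's own row or in an assembled locus matched to the gene, also for the protein-coding numbers. Loci that overlapped a gene without such a match count neither as assigned nor as intergenic. In vehicle library 4, 34.1% of fragments were assigned to genes and 6.63% were intergenic. Vehicle libraries 2 and 5 and library 26 of the extract low dose had 48.1%, 26.1% and 24.9% of their fragments in intergenic loci, and the other 12 libraries had at most 17.9%. Of the 11584 genes tested, the high-dose libraries listed 5.72% to 13.2% at 0, and the vehicle libraries 27.2% to 51.4%. A value of 0 is therefore given below as listed at 0, not as absence. In such bulk tissue, fewer cells of a type and less RNA per cell cannot be told apart.

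The ferritin genes stood above the 4 enzymes in every library. In FPKM, which scales fragments by transcript length and library size and so allows comparison between genes, Fth1 had a median of 373.4 over the 15 libraries and Ftl1 175.5. Blvrb had a median of 2.03, Hmox1 1.02 and Blvra 0.710, and Hmox2 was listed at 0 in 10 of the 15 libraries. Among the genes tested, ranked by FPKM in each library, Fth1 stood at percentile 99.1 or higher and Ftl1 at percentile 93.8 or higher. The order of the low genes among themselves was not stable: Blvrb, Hmox1, Hmox2 and Blvra all overlapped one another across libraries.

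**Figure D1:**
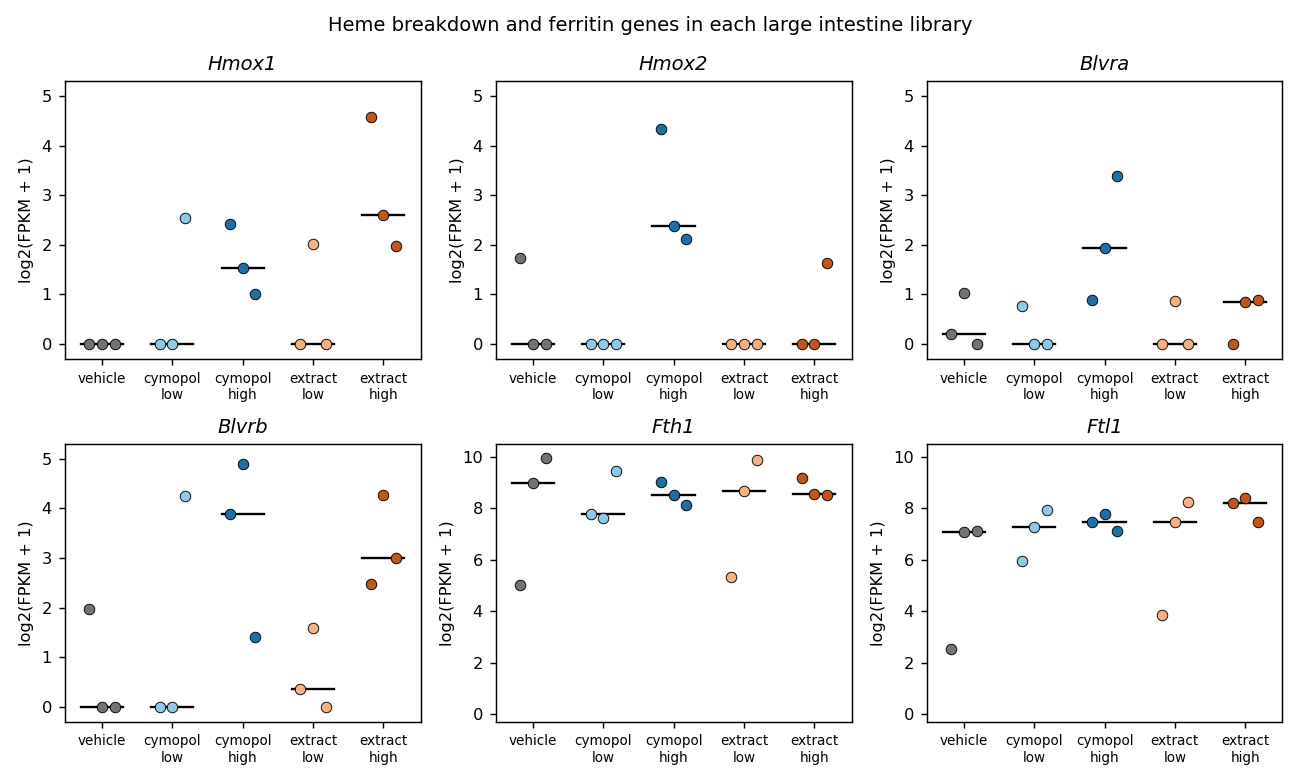
Each panel plots log2(FPKM + 1) of 1 gene in every library of the 5 groups. Points are libraries and bars are group medians. Hmox1 is above 0 in all 6 high-dose libraries and listed at 0 in the 3 vehicle libraries, while Fth1 overlaps between all groups.

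Hmox1 encodes the inducible heme oxygenase. Its levels were 22.95, 5.10 and 2.96 FPKM in the 3 extract high-dose libraries, against a listing at 0 in all 3 vehicle libraries. The cymopol high dose gave 4.38, 1.88 and 1.02 FPKM. At the low doses Hmox1 was above 0 in 1 library of each agent, at 4.79 FPKM with cymopol and 3.07 FPKM with the extract, and listed at 0 in the other 4. Every high-dose library thus lay above every vehicle library, as did 13.3% of all genes tested when both high doses were set against vehicle. The same pattern of zeros was shown by 4.88% of all genes. The Hmox1 values above 0 all came from assembled loci matched to the gene. In the 3 vehicle libraries and low-dose libraries 26, 33 and 34 the 0 came from the gene's own row. In library 29 a matched locus was at 0. The part of this difference was not tested. The lower bound of Hmox1 was 0 in cymopol high-dose libraries 12 and 14 and in low-dose libraries 27 and 35.

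By an exact two-sided permutation test over the 6 high-dose and 3 vehicle libraries, Hmox1 was higher by 2.36 in mean log2(FPKM + 1), with p = 0.0238, the smallest p that 6 against 3 allows. Without any 1 of the vehicle libraries the exact permutation p was 0.0714, the smallest that 6 against 2 allows. Without libraries 2 and 5 together a single vehicle library was left, too few for an exact p under 0.05. With quantile normalization the difference was 1.43, with an exact permutation p of 0.0476, and the libraries overlapped. With median-of-ratios scaling it was 1.87, the exact p was again 0.0238, and the libraries did not overlap. The linear model over all genes (limma) put the extract high dose above vehicle by 3.06 ± 0.93 (SE, log2 scale, n = 3 each), with an adjusted p of 0.283. The cymopol high dose was above vehicle by 1.65 ± 0.93, with an adjusted p of 0.432 in the same limma fit. A fold change is not given, since the vehicle libraries are all listed at 0.

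Scaled by the fragments behind Fth1 in the same library, 3 fragments of Hmox1, the limit that a count of 0 allows, would be worth 0.613, 1.85 and 8.35 FPKM in vehicle libraries 2, 4 and 5. All 6 high-dose levels lie above the limit of vehicle library 2, and all except the 1.02 FPKM of cymopol library 14 above that of library 4. Only the 22.95 FPKM of an extract library lies above the limit of vehicle library 5. For Hmox1 the estimate was 17.0, 2.06 and 0.678 fragments in libraries 11, 12 and 14 of the cymopol high dose. The extract high-dose libraries held an estimated 36.5, 26.3 and 12.7 fragments of Hmox1. Across the study, the 8 libraries with Hmox1 above 0 had 57.1% to 71.9% of their fragments assigned to genes. For the 7 libraries with Hmox1 at 0 this share was 8.56% to 54.0%. The part of this share in the Hmox1 values was not tested.

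Hmox2 encodes the constitutive heme oxygenase. It was listed at 19.08, 4.18 and 3.35 FPKM in the cymopol high-dose libraries, against 2.31, 0 and 0 FPKM in the vehicle libraries. Elsewhere it was above 0 in a single library, at 2.09 FPKM with the extract high dose, and it was listed at 0 in all 6 low-dose libraries. The cymopol high-dose libraries therefore lay above all others, and library 11 stood well above its own group. The share of all genes with that pattern was not formed. By single comparison, 19.5% of all genes tested were wholly higher at the cymopol high dose than in vehicle. The share was 9.74% against the cymopol low dose and 4.48% against the extract high dose. Libraries 12 and 14 had lower bounds of 0 for Hmox2, and its upper bound in vehicle library 2 was 4.65 FPKM.

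The fitted difference of Hmox2 between the cymopol high dose and vehicle was 2.36 ± 0.73 (SE, log2 scale, n = 3 each), with an adjusted p of 0.237 in limma. Between the cymopol high and low doses it was 2.94 ± 0.73, with an adjusted p of 0.442, and between cymopol high and extract high 2.4 ± 0.73, with an adjusted p of 1.00. Over both high doses against vehicle, the exact permutation p was 0.381. Whether counting used strand is not given in the sources used here, so reads of Hmox2 and of the opposite-strand gene Cdip1 cannot be told apart where they overlap. Cdip1 had 3.54, 8.30 and 5.61 FPKM in the cymopol high-dose libraries, against 0.173, 4.89 and 0 FPKM in the vehicle libraries. It had 5.50, 6.38 and 4.67 FPKM at the extract high dose, and its highest values were 13.5, 9.89 and 9.58 FPKM in 3 low-dose libraries where Hmox2 was listed at 0. Over the 15 libraries Pearson's r between Hmox2 and Cdip1 was 0.05 on the log2 scale. The estimate for Hmox2 at the cymopol high dose was 16.5, 3.53 and 2.71 fragments.

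Blvra and Blvrb encode the biliverdin reductases, of which the A form makes the bilirubin found in adults and the B form also reduces flavins. Blvrb levels were 13.71, 28.67 and 1.66 FPKM in the cymopol high-dose libraries, against 2.93, 0 and 0 FPKM in the vehicle libraries. The extract high dose gave 4.59, 18.23 and 7.04 FPKM, all above vehicle, while cymopol library 14 lay within the vehicle range. The 1.66 FPKM of cymopol library 14 corresponds to an estimated 0.82 fragments. The 4.59 FPKM corresponds to 2.38 fragments with a lower bound of 0, and the upper bound in vehicle library 2 was 5.42 FPKM. At the low doses Blvrb reached 18.01 FPKM in 1 cymopol library and at most 2.03 FPKM in the other 5 libraries.

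The exact permutation test of Blvrb over both high doses against vehicle gave a mean difference of 2.66 on the log2 scale and p = 0.0476. In limma, Blvrb was above vehicle by 2.74 ± 1.14 (SE) at the cymopol high dose and by 2.59 ± 1.14 at the extract high dose, with adjusted p-values of 0.321 and 0.392. The exact permutation p of 0.0476 became 0.310 with median-of-ratios scaling, 0.262 with quantile normalization, and 0.0357 to 0.143 when 1 library was left out, staying under 0.05 only without cymopol library 14.

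Blvra levels were 0.853, 2.85 and 9.48 FPKM in the cymopol high-dose libraries, against 0.144, 1.04 and 0 FPKM in the vehicle libraries. The lowest cymopol value lies within the vehicle range, and the other 2 lie above it. With the extract high dose Blvra was listed at 0, 0.796 and 0.852 FPKM, within the vehicle range. The limma difference was 1.67 ± 0.68 for the cymopol high dose against vehicle (adjusted p = 0.312) and 0.17 ± 0.68 for the extract high dose against vehicle (adjusted p = 0.937). Cymopol library 14, with an estimated 23.6 fragments of Blvra, is the only library of the 15 with more than 3 estimated fragments of this gene.

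Fth1, the ferritin heavy chain with the ferroxidase site, did not separate the groups. It averaged 383.0 ± 118 FPKM at the cymopol high dose, 439.1 ± 124 FPKM at the extract high dose and 507.1 ± 477 FPKM in vehicle (SD, n = 3 each). The vehicle libraries alone ran from 31.34 over 504.3 to 985.6 FPKM, a wider range than both high doses together. Over both high doses against vehicle the mean log2 difference was 0.66, with an exact permutation p of 0.619. With median-of-ratios scaling that difference turned to -0.51, so no direction is given for Fth1.

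Ftl1, the ferritin light chain that helps lay down the iron core, was above every vehicle library in every high-dose library. It had 290.6, 332.0 and 175.5 FPKM at the extract high dose, against 4.78, 132.2 and 135.9 FPKM in vehicle. The cymopol high dose gave 177.3, 217.2 and 138.7 FPKM, of which the lowest is close to the highest vehicle value. The low-dose values of Ftl1 ran from 60.74 to 240.0 FPKM with cymopol and from 13.37 to 298.3 FPKM with the extract, overlapping vehicle.

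The exact permutation test of Ftl1 over both high doses against vehicle gave a mean log2 difference of 2.17 and p = 0.0238. In limma the difference from vehicle was 2.45 ± 1.36 (SE) at the extract high dose and 1.90 ± 1.36 at the cymopol high dose, with adjusted p-values of 0.485 and 0.536. Without vehicle library 2 the mean difference was 0.66, and without any 1 vehicle library the exact permutation p was 0.0714. With median-of-ratios scaling the mean difference was 1.06, the exact permutation p was also 0.0714, and the high-dose and vehicle libraries overlapped.

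The annotation also holds near-identical ferritin light chain copies, and how shared reads were split is not given in the sources used here. Ftl2-ps was listed at 0 in all 15 libraries, and Ftl1-ps1 was not analysed here. The values of Ftl1 are uncertain to that extent. Its intervals were wide in the vehicle libraries, where they correspond to 0.218, 24.2 and 1.95 fragments, against 52.2 to 348.4 in the high-dose libraries.

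The ratio of Ftl1 to Fth1 within a library does not depend on how the libraries are scaled to each other, and it was examined after the values had been seen. It was 0.499, 0.889 and 0.485 at the extract high dose, against 0.153, 0.262 and 0.138 in vehicle. It was 0.347, 0.604 and 0.498 at the cymopol high dose. The low doses gave 0.339, 0.435 and 0.320 with the extract and 0.276, 0.777 and 0.342 with cymopol. All 12 treated libraries lay above all 3 vehicle libraries, the closest pair being 0.276 in cymopol low-dose library 33 and 0.262 in vehicle library 4.

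As geometric means, the ratio was 0.471 at the cymopol high dose and 0.599 at the extract high dose, against 0.177 in vehicle. The low doses had 0.419 with cymopol and 0.361 with the extract. Over all treated libraries against vehicle the mean log2 difference of the ratio was 1.36, with an exact two-sided permutation p of 0.0044 and 0.0176 after Benjamini-Hochberg adjustment over 4 ratio tests. Both high doses against vehicle differed by 1.59, with an exact p of 0.0238 (adjusted 0.0317). Both low doses against vehicle differed by 1.14, with an exact p of 0.0238 (adjusted 0.0317). The high doses differed from the low doses by 0.45, with an exact p of 0.152 (adjusted 0.152). The adjustment covers these 4 tests, which share libraries, and not the choice of the ratio after the values were seen. Whether the ratio followed the quality of the libraries was not tested.

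The same ratio to Fth1 was formed for every gene tested other than Fth1. It was higher in all 12 treated libraries than in all 3 vehicle libraries for 53 of 11583 genes, or 0.458%, Ftl1 among them. A gene listed at 0 in any treated library cannot meet this. Low-dose libraries 26 (extract) and 33 (cymopol) listed 56.5% and 50.6% of the genes tested at 0. The 0.458% is therefore lower than the share among genes able to meet it, and the low-dose share below has the same limit. Among the 1927 genes above 0 in all 15 libraries, 4.41% had a higher ratio with an exact p under 0.05. Over the high doses against vehicle, 10.4% of genes were wholly higher by this ratio, and over the low doses 0.509%. The vehicle ratios of 0.153 and 0.138 rest on an estimated 0.218 and 1.95 fragments of Ftl1. Without the 4 libraries under 3 fragments the mean log2 difference of the Ftl1 ratio, treated against vehicle, was 0.91. A single vehicle library was left there, too few for an exact p under 0.05.

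**Figure D2:**
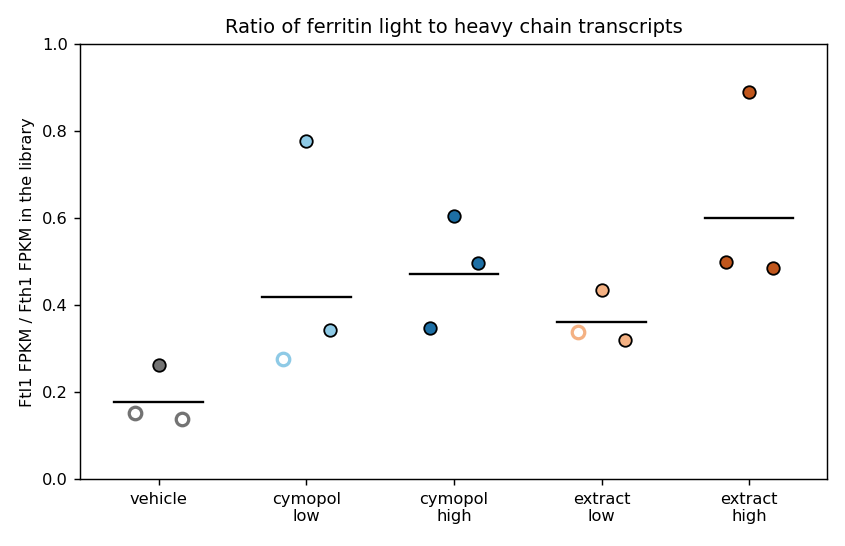
The ratio of Ftl1 FPKM to Fth1 FPKM is plotted for every library, by group, with the geometric mean of each group as a bar. Open points are the 4 libraries with under 3 estimated fragments of Ftl1. The 12 treated points start at 0.276 and all lie above the vehicle points, at 0.138 to 0.262.

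Across all genes, 0 of the 6 members were called in any of the 8 comparisons at an adjusted p under 0.05 in limma. Few genes were called at all, 0.0173% of those tested for the cymopol high dose against vehicle and 0.00863% for the extract high dose against vehicle. At an unadjusted p under 0.05, limma gave 3 of 6 members for the cymopol high dose against vehicle (Hmox2, Blvra and Blvrb), beside 13.3% of all genes. It gave 2 of 6 for the extract high dose against vehicle (Hmox1 and Blvrb), beside 11.6% of all genes. For either low dose against vehicle it gave 0 of 6, beside 5.67% of all genes for cymopol and 3.89% for the extract. In the exact permutation test over both high doses against vehicle, 3 of 6 members (Hmox1, Blvrb and Ftl1) had an unadjusted p under 0.05, as had 17.7% of all genes tested.

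The members' differences stand beside a general upward shift of genes in the high-dose libraries. For the cymopol high dose against vehicle, all 6 fitted differences were above 0 as deposited, though Fth1 turned negative with median-of-ratios scaling or quantile normalization. They had a median of 1.78, beside 0.81 over all genes tested. For the extract high dose against vehicle, 5 of 6 were above 0, with a median of 1.61 beside 0.71 over all genes, and Blvra turned negative with both scalings and Fth1 with median-of-ratios scaling. Median-of-ratios scaling brought the median of all genes to 0.25 in both of these comparisons, and quantile normalization to -0.04 for cymopol and -0.05 for the extract. At the low doses the members' median was 0.53 for cymopol, beside 0.23 over all genes, and -0.02 for the extract, beside -0.14. Both high doses were set against the same 3 vehicle libraries, so their values are not independent of each other.

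**Figure D3:**
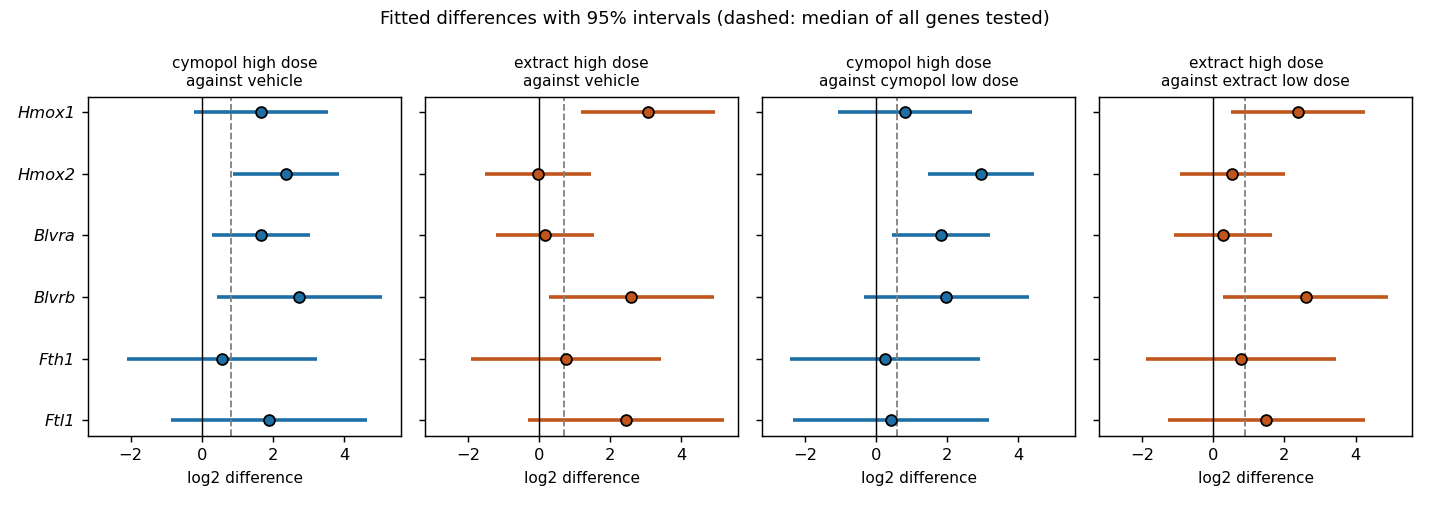
Fitted log2 differences of the 6 genes with their 95% intervals are shown for each high dose against vehicle and against its own low dose. The dashed line is the median over all genes tested, 0.81 and 0.71 against vehicle. Against vehicle, the intervals of Hmox2, Blvra and Blvrb at the cymopol high dose lie above 0 before any adjustment over genes. So do those of Hmox1 and Blvrb at the extract high dose against vehicle. For cymopol high against low, the interval of Blvrb runs from -0.34 to 4.30.

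Group by group, without a fit, the cymopol high-dose libraries lay wholly above the vehicle libraries for Hmox1, Hmox2 and Ftl1, a pattern shown by 19.5% of all genes tested. The extract high-dose libraries lay wholly above vehicle for Hmox1, Blvrb and Ftl1, beside 19.4% of all genes. No member lay wholly above vehicle at either low dose, where 3.87% of all genes did so for cymopol and 1.23% for the extract.

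Dose comparisons avoid the vehicle libraries. With cymopol, Hmox2 and Blvra were higher in every high-dose than in every low-dose library, as were 9.74% of all genes tested. Blvra had 0.853, 2.85 and 9.48 FPKM at the cymopol high dose, against 0.710, 0 and 0 FPKM at the cymopol low dose. The 0.853 FPKM corresponds to an estimated 0.81 fragments and the 0.710 FPKM to 0.0256 fragments. The upper bound of the 0.710 FPKM was 9.58 FPKM, so counting error does not separate these libraries. The limma difference of Blvra was 1.82 ± 0.68 (SE), with an adjusted p of 0.814. With the extract, Blvrb was higher in every high-dose than in every low-dose library, as were 20.9% of all genes. Blvrb had 4.59, 18.23 and 7.04 FPKM at the extract high dose, against 0.276, 2.03 and 0 FPKM at the extract low dose. The high-dose values correspond to an estimated 2.38, 27.1 and 9.55 fragments. The 0.276 and 2.03 FPKM correspond to 0.0533 and 0.390 fragments. The upper bound of the 2.03 FPKM was 8.52 FPKM, above the 4.59 and 7.04 FPKM of the high dose. The limma difference was 2.60 ± 1.14 for Blvrb and 2.38 ± 0.93 for Hmox1, both with an adjusted p of 0.637. Estimated fragments in protein-coding genes ran from 175518 to 559027 over the 6 high-dose libraries, against 28592 to 183914 over the 6 low-dose libraries.

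The agents were given in different dose units, mmol/kg for cymopol and g/kg for the extract, so their values stand side by side without a matched dose. In the libraries of the cymopol high dose against those of the extract high dose, Hmox2 and Blvra did not overlap and were higher with cymopol, beside 4.48% of all genes tested. For Blvra this rests on 0.853 FPKM in the lowest cymopol library against 0.852 FPKM in the highest extract library, with an estimated 0.812 and 0.683 fragments behind them. The limma difference of cymopol high against extract high was 1.5 ± 0.68 (SE) for Blvra and -1.40 ± 0.93 for Hmox1, with adjusted p-values of 1.00. The 95% interval of the Hmox1 difference ran from -3.28 to 0.48, so neither equality nor a difference was shown. Between the low doses of the agents, 0 of 6 members were called and the libraries of all 6 overlapped, where 4.57% of all genes were wholly higher with cymopol.

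Other genes of heme and iron handling were followed in fixed lists. In heme synthesis, 0 of 9 genes tested were called in any comparison in either direction. For the cymopol high dose against vehicle 8 of these 9 had a positive difference, with a median of 0.51 beside 0.81 over all genes. Alad and Urod, enzymes of the middle of the pathway, were among those with the smallest p-values there, and neither passed in limma. Alad had a difference of 3.51 ± 1.04 (SE) for the cymopol high dose against vehicle (adjusted p = 0.211) and 2.88 ± 1.04 for the extract high dose (adjusted p = 0.325). Alas1, the rate-limiting enzyme in most tissues, had 39.04, 31.76 and 37.28 FPKM at the cymopol high dose, against 7.06, 45.74 and 79.30 FPKM in vehicle. Its limma difference was 0.24 ± 1.26, within the spread. Fech, which inserts the iron, had a difference of 0.40 ± 1.18 for the cymopol high dose and 1.34 ± 1.18 for the extract high dose against vehicle.

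In iron uptake, export and storage, 0 of 9 genes tested were called, from a list of 14 of which 13 had a value. The median difference of these 9 was 1.82 for the cymopol high dose against vehicle and 1.54 for the extract high dose, beside 0.81 and 0.71 over all genes. Slc11a2, the apical iron importer DMT1, was listed at 0 in all 3 vehicle libraries. Like 4.88% of all genes tested, it was also above 0 in every high-dose library. It had 1.79, 9.74 and 8.44 FPKM at the cymopol high dose and 5.15, 3.55 and 2.34 FPKM at the extract high dose. Its limma differences from vehicle were 2.71 ± 1.03 (SE) for the cymopol high dose and 2.18 ± 1.03 for the extract high dose, with adjusted p-values of 0.294 and 0.414. At the low doses Slc11a2 was above 0 in 5 of 6 libraries, where Hmox1 was above 0 in 2 of 6. Those 5 Slc11a2 values correspond to an estimated 0.375, 5.65 and 0.149 fragments with the extract and 2.34 and 0.451 with cymopol. The high-dose values of Slc11a2 correspond to 1.05 to 8.62 fragments.

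Tfrc, the transferrin receptor, whose transcript is stabilised when iron is scarce, had 6.61, 8.88 and 2.96 FPKM at the cymopol high dose, against 0.208, 0.324 and 3.21 FPKM in vehicle. Its limma difference was 1.82 ± 1.05 (SE) with an adjusted p of 0.442. The Tfrc values correspond to an estimated 4.32, 6.48 and 0.954 fragments at the cymopol high dose, against 0.00409, 0.00647 and 0.0276 in vehicle. Slc40a1, whose hairpin is shown above, had 11.14, 58.34 and 15.09 FPKM at the extract high dose, against 0, 42.73 and 9.06 FPKM in vehicle. The groups overlapped, and its limma difference was 1.57 ± 1.39 with an adjusted p of 0.657. The 9.06 FPKM of Slc40a1 in vehicle library 5 corresponds to an estimated 0.245 fragments. Steap3, a ferrireductase, differed by 2.03 ± 0.98 for the cymopol high dose against vehicle, and the ferroxidase Heph by 1.98 ± 1.14, and neither passed in limma.

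In heme transport 0 of 6 genes tested were called, from a list of 8, and in iron sensing 0 of 3. Ireb2, an iron regulatory protein that binds the ferritin hairpin, had a limma difference of 1.72 ± 0.73 (SE) for the cymopol high dose against vehicle (adjusted p = 0.326). Aco1, the other such protein, differed by 1.10 ± 1.17. Of the regulators of Hmox1, 0 of 7 genes tested were called, with a median difference of 0.67 for the cymopol high dose and 0.99 for the extract high dose. Bach1 had 4.21, 8.43 and 13.05 FPKM at the cymopol high dose, against 0.0380, 4.86 and 3.19 FPKM in vehicle. Its difference was 1.59 ± 1.06 with an adjusted p of 0.504 in limma. The Bach1 values in vehicle correspond to an estimated 0.00154, 10.7 and 0.296 fragments. Nfe2l2, which encodes NRF2, differed by 2.18 ± 1.17 for the extract high dose against vehicle, with an adjusted p of 0.473. Keap1, which holds NRF2 in the cytoplasm, differed by 1.98 ± 1.11 for the cymopol high dose against vehicle and by 1.92 ± 1.11 for the extract high dose.

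Cell type markers varied widely and were read beside the members. Epithelial markers of the labelled tissue were present: the 11 colonocyte markers summed to 1369 to 1785 FPKM at the cymopol high dose and 1059 to 1764 FPKM at the extract high dose, against 140.0 to 2544 FPKM in vehicle. By fitted difference, 11 of 11 were above 0 at each high dose, with medians of 1.91 for cymopol and 1.26 for the extract beside 0.81 and 0.71 over all genes, and 0 were called in limma. The goblet cell markers summed to 210.5 to 1699 FPKM over both high doses, against 209.0 to 985.2 FPKM in vehicle. Their mean log2(FPKM + 1) did not overlap, at 5.74 to 7.97 in the 6 high-dose libraries, against 2.85 to 5.33 in the vehicle libraries. By the same measure every other marker list overlapped. A share over all genes was not formed for such means, and 13.3% of single genes tested lay wholly above vehicle at both high doses. Of the 5 goblet cell markers 4 were tested, and all 4 differences were above 0 at each high dose, with medians of 3.22 for cymopol and 2.57 for the extract and 0 called in limma. Macrophages recycle heme iron and carry much Hmox1. Their 10 markers summed to 12.0 to 77.0 FPKM at the cymopol high dose and 7.04 to 53.2 FPKM at the extract high dose, against 1.52 to 194.1 FPKM in vehicle, so the groups overlapped. Among the 10, 0 to 5 were at 0 in the high-dose libraries and 2 to 9 in the vehicle libraries. Mrc1 was the only 1 at 0 in all 3 vehicle libraries, and no macrophage marker was at 0 in all 3 libraries of either high dose. Of the 9 macrophage markers tested, 8 differences from vehicle were above 0 at the cymopol high dose and 6 at the extract high dose. Their medians were 0.70 and 0.36, beside 0.81 and 0.71 over all genes, and 0 were called in limma.

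Red cell precursors also hold heme enzymes, and 6 erythroid markers summed to 6.41 to 188.1 FPKM at the cymopol high dose and 29.8 to 63.4 FPKM at the extract high dose, against 3.22 to 75.5 FPKM in vehicle. Of these 6 markers, 1 to 3 were at 0 in the high-dose libraries and 4 to 5 in the vehicle libraries. The hemoglobin genes Hbb-bs and Hbb-bt, Alas2 and Slc4a1 were at 0 in all 3 vehicle libraries, as was Slc4a1 at the cymopol high dose. Smooth muscle markers summed to 277.4 to 909.6 FPKM over both high doses, against 61.5 to 790.3 FPKM in vehicle, and adipocyte markers to 12.2 to 164.3 FPKM, against 4.48 to 133.5 FPKM in vehicle. B cell markers summed to 2.74 to 58.2 FPKM over both high doses, against 1.02 to 532.6 FPKM in vehicle. The part of any of these cell types in the members' values was not tested.

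**Figure D4:**
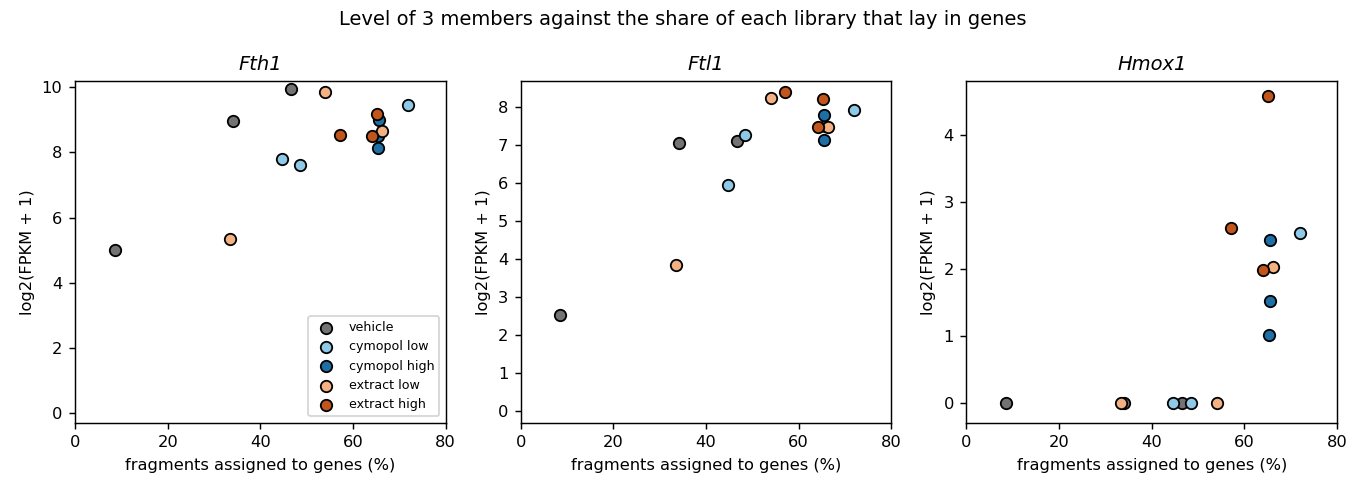
The level of Fth1, Ftl1 and Hmox1, as log2(FPKM + 1), is plotted against the percent of fragments assigned to genes. Each library is 1 point, coloured by group. Hmox1 is above 0 in the 8 libraries from 57.1% upwards and listed at 0 in the 7 libraries up to 54.0%. The lowest Fth1 and Ftl1 values are those of vehicle library 2 and extract low-dose library 26.

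The members varied together in part. Over the 15 libraries, Pearson's r of log2(FPKM + 1) was 0.90 between Fth1 and Ftl1 and 0.71 between Hmox1 and Blvrb, while Hmox1 and Hmox2 had an r of 0.16. With the percent of fragments assigned to genes, in which the libraries also differ, r was 0.84 for Ftl1, 0.69 for Fth1 and 0.68 for Hmox1. It was 0.51 for Blvrb, 0.31 for Blvra and 0.17 for Hmox2. The genes most like each member over the 15 libraries, by Pearson's r among all genes tested, are given by name. For Ftl1 they were Pkm (r = 0.97), Lgals3 (0.97) and Sdhb (0.96), and for Fth1 they included Gm25939 (0.95) and Car1 (0.94). For Hmox1 they were Gfod2 (0.93), S100a13 (0.91) and Coasy (0.91), and for Blvrb they were Eif1b (0.95), Poc1a (0.92) and Sdr39u1 (0.91). Hmox2 was most like Gm11973 (0.90), Tmem186 (0.87) and Kif5c (0.85), and Blvra most like Ly6d (0.93), Tm4sf5 (0.90) and Fam84a (0.89).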

How the data were processed

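RNA was depleted of ribosomal RNA from 90 ng of total RNA and made into libraries with a low-input kit, per the labels' protocols. The submitters' processing notes name STAR 2.4.0j and the build GRCm38.p4. The authors deposited FPKM with a lower and an upper bound, in 1 table per library with the columns of Cufflinks, per the file headers; no source used here gives its version, annotation or settings.

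Each table also lists loci assembled in that library. Where an annotated gene lacked its own row, it took the value of the assembled locus that matched it best in span, if the overlap was 0.5 or more of their combined span. In this way all 6 members had a value in all 15 libraries. Fragments were estimated from the width of each FPKM interval and are too low where that interval is wider than counting allows; intervals and limits cover counting error only. Genes with FPKM of at least 1 in at least 3 libraries and a value in all 15 were tested, 11584 in all.

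Values were analysed as log2(FPKM + 1), which understates changes of low genes. Group means were estimated in a joint fit of the 15 libraries by limma 3.58.1 (R 4.3.3, moderated variances with a trend), with Benjamini-Hochberg adjustment over all genes tested and a call at an adjusted p under 0.05. It was tested on simulated data first. Exact two-sided permutation tests over libraries were run in Python 3.11.15; 3 against 3 cannot go below p = 0.1. No 2 libraries held identical values.

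The 6 members, the gene lists and the tests were chosen with earlier results of these data known, and the Ftl1 to Fth1 ratio, the paired-hairpin search and the limit for Hmox1 were added after the values were seen. Named genes are the 6 members, Tfrc, Slc40a1, Slc11a2, Alas1, Fech and Bach1, at most 3 genes per list with the smallest p, and the 3 genes most like each member; Cdip1 was named after its values were seen, and a few genes that this rule names are not reported here. The hairpin loop was planned for the bases just after the gene start and was searched in whole 5′ UTRs of GENCODE M21 instead. Alternatives were another pseudocount (0.1), no filter, median-of-ratios scaling, quantile normalization, array weights, only the groups compared, and leaving out libraries.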

Additional observations from a re-analysis of the deposited data

Results flagged for a closer look

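Pieces of signal inside the introns of members, assembled as loci of their own and given to no gene, exceeded the vehicle level at the same place. In Hmox2, a locus of 101 bp at chr16:4763242-4763342 held an estimated 11.9 fragments (169.8 FPKM) in extract low-dose library 26, against 3.00 fragments (127.3 FPKM) at an overlapping locus in vehicle library 4. A locus of 543 bp at chr16:4741846-4742388, also in Hmox2, held an estimated 13 fragments (22.4 FPKM) in cymopol low-dose library 35, with no locus there in vehicle. In Blvra, a locus of 168 bp at chr2:127076306-127076473 held an estimated 7 fragments (34.3 FPKM) in extract high-dose library 25, with no locus there in vehicle, although vehicle library 2 had 14.7 fragments in another intronic locus of Blvra. None of these entered the values above. No group had enough libraries for a test of single outlying libraries.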

How the results depend on the processing

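The count of members called by limma was 0 of 6 in all 8 comparisons under every alternative that gave a value, and the smallest adjusted p of any member under any of them was 0.142. Using annotated identifiers alone left 1097 genes and no member among them, so that alternative gave no value. No paired analysis was possible because the groups share no replicate numbers. Estimated fragments in protein-coding genes ran from 28592 to 183914 in the low-dose and 25265 to 227401 in the vehicle libraries, and vehicle library 4 was deeper than extract high-dose library 21, at 175518.

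Of the 3 members with an exact p under 0.05 for both high doses against vehicle, 1 was left with median-of-ratios scaling (Hmox1). When 1 library was left out, 0 to 3 remained. It was 0 whenever a vehicle library was left out, since 6 against 2 cannot go below an exact p of 0.0714. Without the 3 libraries rich in intergenic fragments a single vehicle library was left, so no member could reach an exact p under 0.05. For both high doses against vehicle, the mean difference of Fth1 became -0.51 with median-of-ratios scaling, -0.34 without the 3 libraries and -0.82 to 1.65 leaving out 1 library. With quantile normalization Hmox2 became -0.091 and Blvra -0.13.

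Fitted differences that changed sign, none of them called, were as follows. With median-of-ratios scaling, Fth1 was at -0.71 (cymopol high against vehicle), -0.32 (extract high against vehicle), -0.38 (cymopol high against low) and -0.99 (extract high against low). Ftl1 was at -0.21 and -0.26 in those dose comparisons, and Blvra at -0.13 for the extract high dose against vehicle. With quantile normalization, Fth1 was at -4.6e-05 (cymopol high against vehicle) and -0.20 (extract high against low), and Blvra at -0.70 (extract high against vehicle) and -0.29 (extract high against low). With array weights, Hmox2 was at 0.30 for the extract high dose against vehicle. Without the 3 libraries rich in intergenic fragments, Fth1 was at -0.44 and -0.23 for the cymopol and extract high doses against vehicle and at -0.52 for extract high against low, Hmox2 at 0.54 and Blvra at -0.45 for the extract high dose against vehicle.

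Leaving out 1 library at a time, differences from vehicle ran from -0.92 to 1.54 for Fth1 at the cymopol high dose, from -0.72 to 1.75 for Fth1, from -0.034 to 0.46 for Blvra and from -0.58 to 0.54 for Hmox2 at the extract high dose. High against low dose, they ran from -0.082 to 0.83 for Fth1 and from -0.13 to 0.85 for Ftl1 with cymopol, and from -0.52 to 1.75 for Fth1 with the extract. Cymopol high against extract high, they ran from -0.61 to 1.13 for Blvrb and from -0.44 to 0.015 for Fth1.

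The Ftl1 to Fth1 ratio kept its direction throughout. Without the 4 libraries under 3 estimated fragments of Ftl1, the difference was 0.91 for all treated libraries against vehicle, 1.02 for the high doses and 0.74 for the low doses. A single vehicle library was left there, too few for an exact p under 0.05. Leaving out 1 library gave 1.41 to 1.87 for the high doses and 0.94 to 1.42 for the low doses against vehicle, with an exact permutation p of 0.0714 whenever a vehicle library was left out, and 0.30 to 0.65 for high against low, with p = 0.0087 without cymopol low-dose library 34. The causes of these shifts were not tested beyond the numbers of libraries left.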
